A study of Mus musculus with 84 samples.

Results

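The circadian clock genes of the mouse colon were described here through 10 members: Arntl, Clock, Npas2, Per1, Per2, Per3, Cry1, Cry2, Nr1d1 and Dbp. They were chosen by symbol from the 25494 gene rows of the RNA-seq count table, and each symbol matched 1 row. Their chromatin was read from peaks of H3K27ac (a mark of active promoters and enhancers), H3K4me1 (a mark of enhancers) and the transcription factor HNF4a that overlapped the gene's locus extended by 10 kb on either side. All RNA-seq libraries came from male germ-free C57BL/6 mice that were fed a low fat diet (LFD, 10% fat) or a high fat diet (HFD, 60% fat) for 5 weeks from 6 weeks of age. During that time they were gavaged 4 times a week with bacteria from obese HFD-fed donors (HFB) or lean LFD-fed donors (LFB). The 4 groups HFDHFB, HFDLFB, LFDHFB and LFDLFB had 3 libraries each for RNA and 3 each for H3K27ac, apart from 2 for H3K27ac in HFDHFB. The other peak lists came from C57BL/6 mice after 20 weeks on either diet, with 3 libraries for each mark, sex and diet and with 2 HNF4a libraries for each diet, all from males. The RNA was extracted from cells scraped from the colon, whereas the chromatin came from epithelium released by shaking in EDTA. The hour of the day at which tissue was collected is not given in the sources used here.

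In the clock of mammalian cells, ARNTL (also known as BMAL1) pairs with CLOCK or its relative NPAS2 and switches on genes that carry E-box sequences. Among these genes are Per and Cry, whose proteins accumulate and repress the ARNTL pair, so that the loop turns about once a day. NR1D1 (REV-ERB alpha) represses Arntl, and DBP is an output activator that binds D-box sequences. In many tissues Nr1d1 and Dbp RNA is high at a different time of day from Arntl RNA, and the clock of the gut responds to feeding time.

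Library totals were 39904191 to 48026846 counted reads. The lowest count of a member was 453 (Arntl) and the highest 10789 (Nr1d1), so all 10 members were well above the filter on low counts and all were tested. The 8 epithelial markers (Epcam, Krt8 and others) summed to 10480 to 15890 CPM (counts scaled to the size of the library, corrected by the TMM factors of edgeR) with none at 0 in any library. Markers of other cell types were present too and differed between libraries. The 8 smooth muscle markers summed to 1081 to 6976 CPM the 8 adipocyte markers to 88.72 to 2886 CPM and the 8 mesothelial markers to 49.76 to 504.7 CPM, with the highest sums of the last 2 lists in HFDLFB. In such bulk RNA, fewer cells of a type and less RNA per cell cannot be told apart. Nothing in the labels ties the replicates to separate cages or litters, so p-values measure the spread between these samples.

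Dbp and Nr1d1 were the most abundant members per length of transcript. Over the 12 libraries Dbp had a median of 58.3 CPM per kb of exon (39.2 to 76.9) and Nr1d1 55.4 (34.7 to 75.0), and these 2 ranges overlapped almost wholly. Every other member lay below both ranges. Per1 had a median of 13.5 CPM per kb, Per2 12.6, Arntl 11.4, Cry2 10.8 and Clock 9.28. Cry1 followed with 7.96, Npas2 with 5.18 and Per3 with 4.07. The ranges of neighbours from Per1 down to Per3 overlapped throughout. All members were measured in the same libraries, and whether neighbours kept this order within each library was not tested. The exon lengths were taken from GENCODE vM1, and the annotation behind the counts is not given in the sources used here.

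Arntl (gene ID 11865, chr7:120350979-120457640, mm9, + strand) encodes the obligate activator of the loop and was the most variable member. Its normalised level was 31.2, 18.2 and 33.1 CPM in the HFDHFB libraries, 25.8, 38.5 and 35.8 in HFDLFB, 34.3, 50.7 and 9.79 in LFDHFB, and 33.5, 22.5 and 39.0 in LFDLFB. The lowest and the highest value of all 12 libraries were therefore both in LFDHFB, 5.18-fold apart, and the groups overlapped. The SD of log2 CPM within groups was 0.71, at or above that of 94.8% of the 9300 genes with a mean of at least 10 CPM, whose median was 0.203. The other members had within-group SDs of 0.245 (Cry2) to 0.409 (Npas2), all above that median.

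Npas2 (gene ID 18143, chr1:39251117-39420085, + strand), the partner that can replace CLOCK, spanned 15.5 to 41.2 CPM. It was 24.2, 16.3 and 22.5 CPM in HFDHFB against 28.0, 26.2 and 25.4 in HFDLFB. These were the only groups of any member that did not overlap in a comparison, which 13% of all 15893 genes tested did in the same comparison. Clock (gene ID 12753, chr5:76638893-76733817, − strand) was steadier, at 65.16 to 114.1 CPM.

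Among the repressors, Per1 (gene ID 18626, chr11:68912458-68923459, + strand) ranged from 50.4 CPM in LFDHFB replicate 3 to 101.8 in LFDLFB replicate 1. Per2 (gene ID 18627, chr1:93312559-93355905, − strand) ranged from 44.996 in HFDHFB replicate 3 to 87.4 in LFDHFB replicate 2. Per3 (gene ID 18628, chr4:150377764-150418774, − strand) ranged from 29.5 to 59.8 and Cry1 (gene ID 12952, chr10:84594445-84647799, − strand) from 16.66 to 29.98, with the lowest value of both in HFDHFB replicate 3 and the highest in LFDHFB replicate 2. Cry2 (gene ID 12953, chr2:92243804-92274226, − strand) was 65.0, 55.2 and 53.9 CPM in HFDHFB, 95.7, 63.3 and 81.8 in HFDLFB, 71.0, 73.4 and 51.2 in LFDHFB, and 78.64, 60.03 and 76.24 in LFDLFB. The highest HFDHFB library of Cry2 was above the lowest library of each of the other groups.

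Nr1d1 (gene ID 217166, chr11:98629246-98636691, − strand) was 108.5, 112.1 and 160.3 CPM in HFDHFB and 185.3, 176.2 and 136.4 in HFDLFB. It was 170.2, 191.1 and 112.4 in LFDHFB and 234.3, 179.7 and 209.0 in LFDLFB, where its mean was highest. The 3′ end of Nr1d1 overlaps Thra on the other strand, and whether the counting used strand is not given in the sources used here, so its counts are uncertain to that extent. Dbp (gene ID 13170, chr7:52960617-52965573, + strand) was 115.5, 155.8 and 163.9 CPM in HFDHFB, 169.1, 149.6 and 180.6 in HFDLFB, 222.6, 226.5 and 125.5 in LFDHFB, and 221.0, 174.5 and 174.4 in LFDLFB. LFDHFB replicate 3 was again far below the other libraries of its group.

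**Figure D1:**
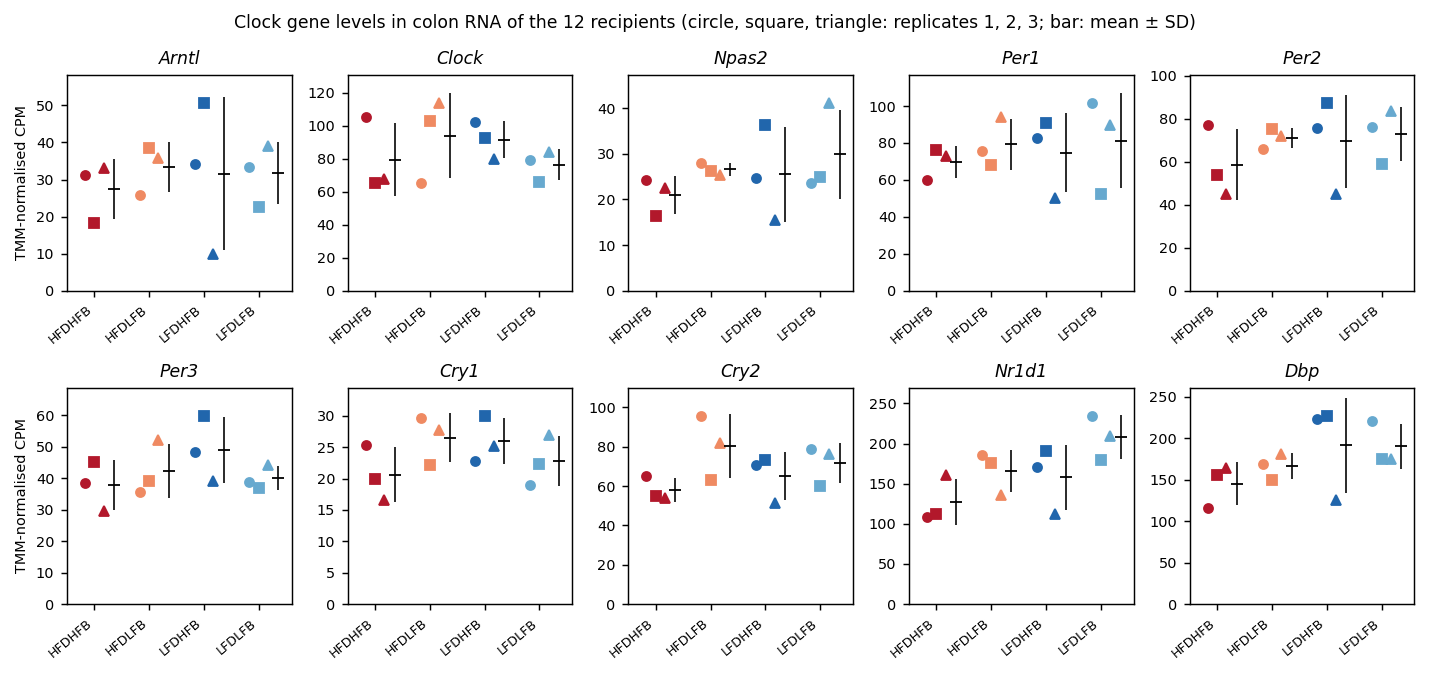
TMM-normalised CPM (y axis, linear from 0) of the 10 clock genes in each of the 12 recipient libraries by group (x axis), with the mean ± SD (n = 3) beside the points and the replicate number given by the symbol. The groups overlapped for nearly every gene, and LFDHFB replicate 3 (triangle) had the lowest value of all libraries for Arntl, Npas2, Per1 and Cry2.

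Whether bacteria from obese donors altered the clock genes was asked within each diet. On HFD, all 10 members had a lower fitted mean with bacteria from obese donors (HFDHFB against HFDLFB), with a median log2 fold change of −0.28, but none of them passed the test. Over all genes tested the median was −0.002 and 50.3% were below 0. By edgeR's quasi-likelihood test with Benjamini-Hochberg adjustment over all 15893 genes, the adjusted p of the members was 0.5 (Cry2) to 0.895 (Arntl). No gene of the table passed an adjusted p of 0.05 in this comparison (0% called), and DESeq2, which called 80 genes, called no member either. At an unadjusted p under 0.05, there was 1 of the 10 members, Cry2, which is near the 9.07% of all genes. Its log2 fold change was −0.47 ± 0.18 (SE, edgeR adjusted p = 0.5). In the same comparison 7 of the 7 mesothelial markers tested and 5 of the 8 adipocyte markers had an unadjusted p under 0.05, with median log2 fold changes of −2.37 and −2.85. Of the 8 epithelial and the 8 smooth muscle markers 0 did, with medians of 0.15 and 0.77. The part of the mesothelial and adipocyte RNA in the members' values was not tested.

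The intervals show what these data could not tell. The 95% interval of the log2 fold change was −0.87 to −0.06 for Cry2, −0.78 to 0.06 for Cry1 and −0.87 to 0.10 for Nr1d1. For Arntl it was −1.30 to 0.74, so that neither a fall to less than 1 in 2 nor a rise of over 1.5-fold was excluded.

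On LFD the same change of bacteria (LFDHFB against LFDLFB) gave 4 members above 0 and 6 below, with a median of −0.04 against 0.02 over all genes, of which 46.5% were below 0. By edgeR no member had an unadjusted p under 0.05 in this comparison, against 3.72% of all genes, and the smallest adjusted p was 0.975; DESeq2 called 0 genes. Per3 was at 0.29 ± 0.20 and Nr1d1 at −0.40 ± 0.22 (log2 fold change ± SE, n = 3 per group). The dependence of the bacterial effect on diet was tested as an interaction. It was negative for 9 members and positive for Nr1d1 alone (0.01), with a median of −0.24 against −0.05 over all genes, of which 54.3% were below 0. Of the mesothelial markers 7 of 7 and of the adipocyte markers 7 of 8 had an unadjusted p under 0.05 for the interaction (medians of −2.29 and −4.55), and as many did in HFDLFB against LFDLFB (1.58 and 3.29). No member passed the interaction test. The smallest adjusted p was 0.474, for Cry1 at −0.55 ± 0.27, and no member had an unadjusted p under 0.05 by edgeR, against 11.3% of all genes. DESeq2 called 72 genes for the interaction and no member.

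The diets were compared within each donor. In recipients of bacteria from obese mice (HFDHFB against LFDHFB) all 10 members were again below 0, with a median of −0.26 against −0.03 over all genes, of which 54.7% were below 0. This comparison shares the HFDHFB libraries with the one above, so its direction is not a separate observation. Dbp was at −0.40 ± 0.22, Per3 at −0.38 ± 0.20 and Arntl at −0.20 ± 0.46. No member had an unadjusted p under 0.05 by edgeR, against 7.46% of all genes, the smallest adjusted p was 0.739, and DESeq2 called 126 genes but no member. In recipients of bacteria from lean mice (HFDLFB against LFDLFB) 5 members were above and 5 below 0, with a median of 0.02 against 0.004 over all genes. By edgeR 0 members had an unadjusted p under 0.05, against 5.33% of all genes, with adjusted p of 0.882 or more, and DESeq2 called 9 genes, none of them a member. In every one of these comparisons edgeR called 0% of all genes at an adjusted p of 0.05.

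**Figure D2:**
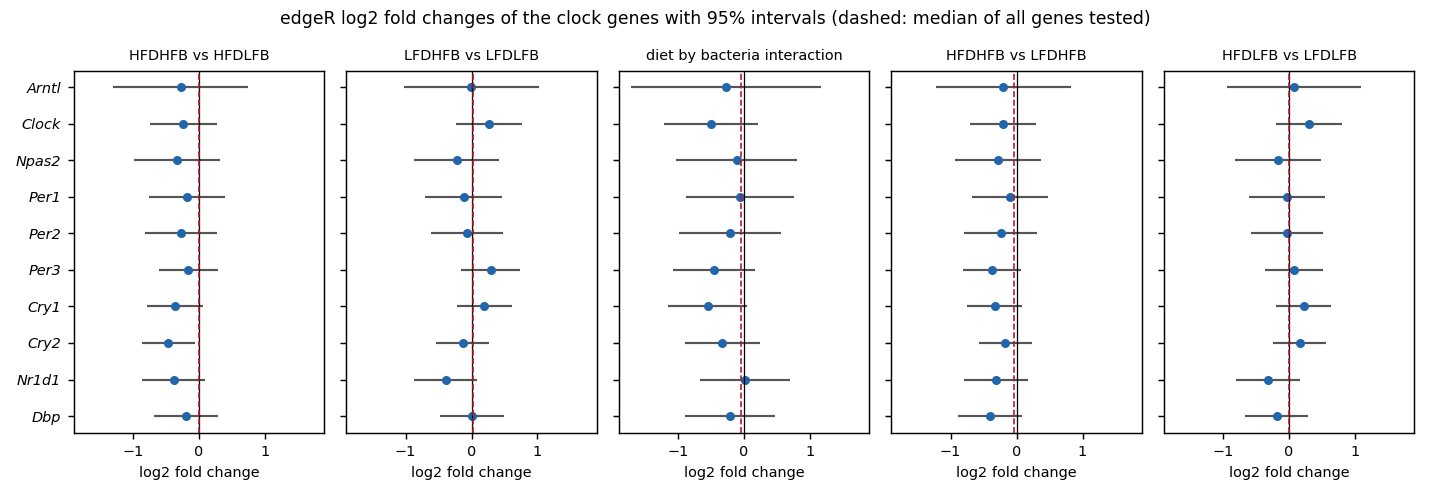
Log2 fold change of each clock gene (x axis, point) with its 95% interval (line) from the edgeR fit, 1 panel per comparison, with the median of all genes tested as a dashed line. All 10 points lay below 0 in HFDHFB vs HFDLFB and in HFDHFB vs LFDHFB. Of all intervals only that of Cry2 in HFDHFB vs HFDLFB did not reach 0.

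Members of a library often deviated in the same direction. In LFDHFB replicate 2 and LFDLFB replicate 3 all 10 members were above their mean over the 12 libraries. In LFDHFB replicate 3, 9 of 10 were below it, with a median deviation of −0.47 on the log2 scale, and 4 members had their lowest value there. In HFDHFB replicates 2 and 3, 8 of 10 members were below the mean, with median deviations of −0.30 and −0.23, while HFDHFB replicate 1 had 6 below and 4 above.

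The smooth muscle markers moved with these deviations. Their sums were highest in HFDHFB replicate 3 (6976 CPM), LFDHFB replicate 3 (5311), HFDLFB replicate 1 (4870), HFDHFB replicate 2 (4866) and LFDLFB replicate 2 (4564), and were 1081 to 2652 in all other libraries. In those 5 libraries 8, 9, 5, 8 and 7 members were below their mean. HFDHFB held 2 of them and every other group 1. The 8 enteric neuron and glia markers were highest in the same 5 libraries, at 131.1 to 267.4 CPM, against 38.18 to 68.04 CPM in all others. None of the 8 muscle markers was at 0 in any library. With the log2 sum of these markers as a covariate, added after the data were seen, 4 members were above and 6 below 0 in HFDHFB against HFDLFB and the median moved from −0.28 to −0.10. In HFDHFB against LFDHFB it moved from −0.26 to −0.14, with 2 above and 8 below 0, and for the interaction from −0.24 to −0.089. The median moved away from 0 elsewhere. It went from −0.04 to −0.10 in LFDHFB against LFDLFB, with 4 above and 6 below 0. In HFDLFB against LFDLFB it went from 0.02 to −0.085, with 3 above and 7 below 0. No member passed in that fit, where the smallest adjusted p over the 5 comparisons was 0.276. A covariate of muscle markers does not separate muscle from enteric neurons and glia, whose markers followed the same libraries. What part the content of either has in the levels of the clock genes was not otherwise tested.

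**Figure D3:**
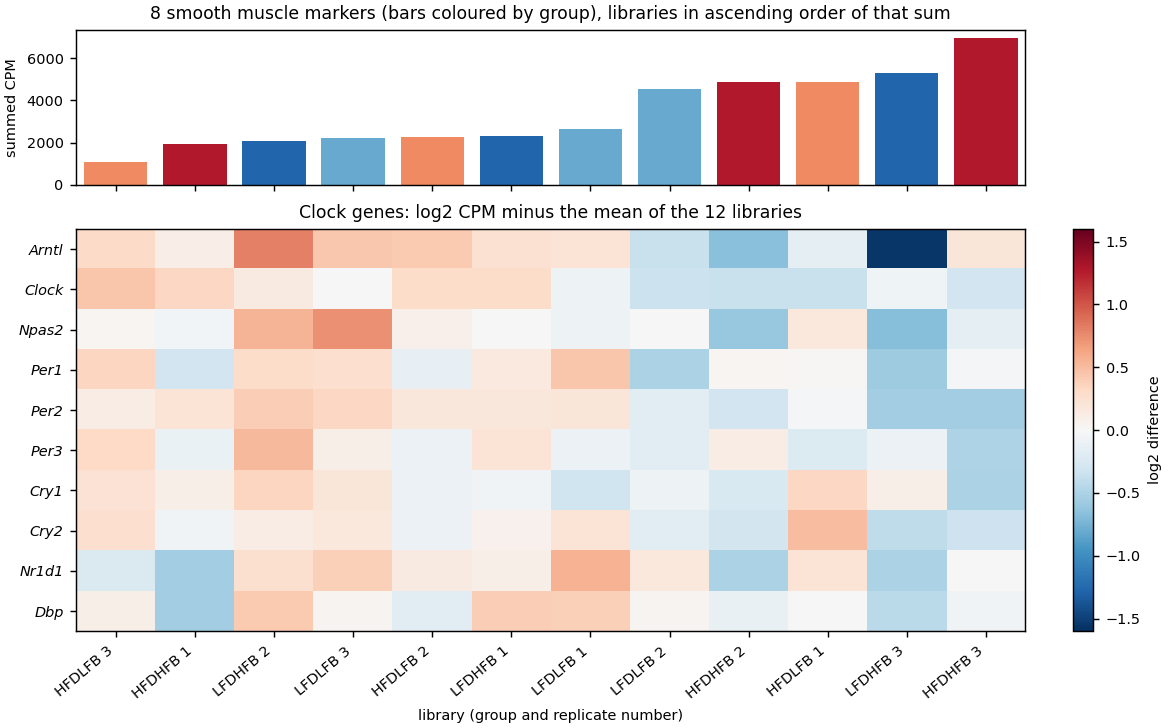
Upper panel, summed CPM of 8 smooth muscle markers in each library, coloured by group as in the plot of levels and placed in ascending order. Lower panel, log2 CPM of each clock gene minus its mean over the 12 libraries (colour, log2 scale), in the same order. Blue (below the mean) was most frequent in the 5 libraries on the right, whose sums were 4564 to 6976 CPM, and the strongest was Arntl in LFDHFB replicate 3.

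The members' covariation was measured over the 12 libraries for all 45 pairs, which share the same libraries and scaling. Pearson's r was above 0 for 42 pairs and below 0 for 3, with a median of 0.497 and a range of −0.12 (Clock and Nr1d1) to 0.80 (Arntl and Npas2). The spread of r over pairs of other genes is not given here. Values near the median were common, as Cry2 ranked 2654th of 15893 genes in likeness to Arntl (r = 0.54) and 1577th to Dbp (r = 0.50). By permutation, 13 pairs had an unadjusted p under 0.05 but 0 passed after Benjamini-Hochberg adjustment over the 45 pairs, where the smallest adjusted p was 0.057. Spearman's rho gave 10 and 0 pairs, and r with the group means taken off and libraries permuted within groups gave 6 and 0.

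The highest correlations were among Arntl, Npas2 and Per2. Clock, also an activator, had r = 0.61 with Per2, 0.46 with Arntl and 0.27 with Npas2. Arntl and Npas2 had r = 0.80 (rho = 0.73, permutation p = 0.0016 and 0.0095, adjusted p = 0.057 and 0.14), and r fell to 0.52 without LFDHFB replicate 3 and HFDHFB replicate 2, the libraries farthest from the median of Arntl. Npas2 and Per2 had r = 0.76 (rho = 0.64, permutation p = 0.0034 and 0.03, adjusted p = 0.057 and 0.17), and 0.63 without the 2 farthest libraries. Arntl and Per2 had r = 0.76 (rho = 0.73, permutation p = 0.0038 and 0.0087, adjusted p = 0.057 and 0.14), and 0.55 without them.

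Dbp with Nr1d1 and with Per1 formed another set of high values. Nr1d1 and Dbp had r = 0.74 (rho = 0.64, permutation p = 0.006 and 0.03, adjusted p = 0.064 and 0.17), and 0.65 without HFDHFB replicates 1 and 2. Per1 and Dbp had r = 0.73 (rho = 0.73, permutation p = 0.0071 and 0.0087, adjusted p = 0.064 and 0.14), and this was the one among these pairs that was higher, at 0.85, without its 2 farthest libraries. Arntl, which is repressed by NR1D1, had r = 0.58 with Nr1d1 (rho = 0.52, permutation p = 0.042 and 0.09, adjusted p = 0.15 and 0.18). For this pair r was 0.13 without LFDHFB replicate 3 and HFDHFB replicate 2, and 0.43 without LFDHFB replicate 3 alone. With the group means taken off it was 0.71 (permutation within groups p = 0.073, adjusted p = 0.3). Cry1 had r of −0.008 with Nr1d1 and near 0 with Dbp.

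The genes most like Arntl over the 12 libraries, among 15893, were 4930415O20Rik (r = 0.971), Thpo (0.966), Cyp2d10 (0.964), Nt5e (0.959) and Cyp2d12 (0.957). The most unlike were Slc7a3 (−0.932), Stxbp5l (−0.931), Slc44a5 (−0.927), Add2 (−0.912) and Rufy2 (−0.912). The nearest clock genes of either list were Noct (r = 0.829), which ranked 464th from the top, and Npas2, which ranked 620th. Dbp was most like 0610005C13Rik (0.927), Tecpr1 (0.908), Adamts13 (0.901), Ciart (0.889) and Ppp1r32 (0.874), and most unlike Tmem167 (−0.838), Macrod2 (−0.827), Gabrb2 (−0.819), Dnaja1 (−0.811) and Bet1 (−0.81). Ciart, a repressor of the ARNTL pair, was thus the 4th of 15893 genes. Nr1d1 ranked 95th, Usp2 98th and Per1 116th in likeness to Dbp. These are descriptions over 12 shared libraries and carry no test.

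The other clock genes were counted as a list of 22, all of which were tested. None passed an adjusted p of 0.05 in any comparison by edgeR. At an unadjusted p under 0.05 there were 1 in HFDHFB against HFDLFB (Tef), 2 in LFDHFB against LFDLFB (Nr1d2 and Cipc), 5 for the interaction (among them Nr1d2 and Nampt), 6 in HFDHFB against LFDHFB and 1 in HFDLFB against LFDLFB (Nampt). Over all genes the shares were 9.07%, 3.72%, 11.3%, 7.46% and 5.33% in the same order. Nr1d2, the paralogue of Nr1d1, had the smallest p of the list and was picked out after its values were seen. It was 139.7, 122.2 and 101.2 CPM in HFDHFB, 126.2, 145.5 and 167.8 in HFDLFB, 170.6, 164.2 and 180.6 in LFDHFB, and 130.1, 122.3 and 124.2 in LFDLFB. The LFDHFB libraries were above every HFDHFB and LFDLFB library, replicate 3 included, in which Nr1d1 was lowest of its group. Groups did not overlap for 11% of all genes in HFDHFB against LFDHFB and for 10.8% in LFDHFB against LFDLFB. Its log2 fold change was −0.51 ± 0.14 in HFDHFB against LFDHFB (edgeR adjusted p = 0.339) and −0.73 ± 0.19 for the interaction (edgeR adjusted p = 0.386).

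Genes that respond to glucocorticoids, a hormonal input of peripheral clocks, were counted as a list of 9 that includes Per1. None passed by edgeR. Of these 9, 2 had an unadjusted p under 0.05 in HFDHFB against HFDLFB (Zbtb16 and Klf9), 1 in LFDHFB against LFDLFB (Tsc22d3) and 2 in HFDHFB against LFDHFB (Zbtb16 and Klf9), against 9.07%, 3.72% and 7.46% of all genes. In the interaction and in HFDLFB against LFDLFB 0 of the 9 did. The list's median log2 fold change was −0.38 in HFDHFB against HFDLFB and −0.19 in LFDHFB against LFDLFB, where the medians of all genes were −0.002 and 0.02. It was −0.06 for the interaction, −0.10 in HFDHFB against LFDHFB and −0.07 in HFDLFB against LFDLFB, against −0.05, −0.03 and 0.004 over all genes.

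The start sites of the clock genes lay in acetylated chromatin. In the long-term diet mice, an H3K27ac peak covered the start of 9 of 10 members in all 12 libraries, against 39.8% of all 25494 loci, and all 10 had a peak in their window in every library, against 58.3%. The exception was Arntl, whose annotated start was covered in 10 of 12 libraries and in 4 of the 11 of recipients. H3K27ac peaks covered a median of 30.6% of the members' windows, against 4.63% over all loci. H3K4me1 peaks covered a median of 40%, against 13%, but lay over the start in every library only for Per1, against 14.6% of all loci. In these mice Nr1d1 and Dbp had the largest shares under H3K27ac (68.1% and 67.2% of the window in the median library) and Clock the smallest (7.57%). Their windows differed in length, at 27446 bp for Nr1d1, 24957 bp for Dbp and 114925 bp for Clock. By median covered length, Npas2 (34100 bp), Arntl (31622 bp) and Per2 (29300 bp) were above Nr1d1 (18691 bp) and Dbp (16773 bp). In recipients Dbp had the largest (64.0%), followed by Nr1d1 (49.2%) and Per1 (48.2%), and Per3 the smallest (10.4%). All 10 members passed the filter on low counts, but only 15893 of the 25494 genes did. The shares over all loci therefore include genes with few counts and were not matched for expression or window length. The windows hold other genes as well, among them Thra beside Nr1d1, Hes6 beside Per2, and Rpl18, Sphk2 and Car11 beside Dbp.

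The 300 bases before each start were read from mm9 and searched on both strands for the elements through which clock factors act. The E-box CACGTG, bound by the ARNTL pair, was in the windows of Per1 and Cry1 and in 7.38% of 24655 promoters of the same length. Its variant CACGTT was in those of Cry1, Cry2 and Nr1d1 and in 4.88% of all. The D-box (TTATGTAA or TTACGTAA), bound by DBP, was once in that of Per2 and in 2 copies in that of Per3, and in 1.09% of all. The ROR element cores TAGGTCA and TGGGTCA (6.38% of all) and the cAMP element TGACGTCA (2.14%) were in none of the 10 windows. Each window lies before a single annotated start, so elements farther away or at other starts of a gene were not counted. TGACGTCA was in an HNF4a peak upstream of the start used for Per1 (chr11:68910506-68910735), a place annotated as an intron of Per1. CACGTG was in an HNF4a peak in an intron of Nr1d1 (chr11:98635171-98635412). No overlap between these motifs occurred in the windows of the members. The median GC content of the members' windows was 67.2%, against 54.0% over all promoters, and the shares over all promoters were not matched for it. The parts of these promoters that hold a motif are shown because these elements are how clock factors are known to reach a promoter, with the motif in capitals, 5′ to 3′ on the strand of the gene.
Per1 (chr11:68912225-68912350, + strand, E-box 173 bases before the start): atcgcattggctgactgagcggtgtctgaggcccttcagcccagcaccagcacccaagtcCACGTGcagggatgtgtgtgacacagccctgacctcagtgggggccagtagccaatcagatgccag
Cry1 (chr10:84647800-84647938, − strand, E-box variant then E-box): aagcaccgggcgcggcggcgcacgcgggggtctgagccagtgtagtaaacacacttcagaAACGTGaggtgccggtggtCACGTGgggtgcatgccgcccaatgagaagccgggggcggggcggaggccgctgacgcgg
Cry2 (chr2:92274327-92274452, − strand, E-box variant): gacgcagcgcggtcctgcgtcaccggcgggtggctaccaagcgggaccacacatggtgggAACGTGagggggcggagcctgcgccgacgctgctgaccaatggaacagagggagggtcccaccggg
Nr1d1 (chr11:98636692-98636779, − strand, E-box variant 28 bases before the start): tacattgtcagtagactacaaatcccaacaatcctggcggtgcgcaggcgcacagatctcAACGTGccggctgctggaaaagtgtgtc
Per2 (chr1:93355959-93356086, − strand, D-box): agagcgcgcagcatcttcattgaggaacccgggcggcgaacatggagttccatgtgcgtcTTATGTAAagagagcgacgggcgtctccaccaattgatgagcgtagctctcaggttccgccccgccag
Per3 (chr4:150418865-150419039, − strand, both D-boxes): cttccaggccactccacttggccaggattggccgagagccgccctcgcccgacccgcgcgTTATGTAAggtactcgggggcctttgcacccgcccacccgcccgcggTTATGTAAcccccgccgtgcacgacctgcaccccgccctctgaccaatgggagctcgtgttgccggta
On the strand of the gene the variant reads AACGTG in Cry1, Cry2 and Nr1d1. The 2 copies in Per3 are identical over their 8 bases and lie 47 bases apart from start to start. A match is a description of the letters and not of a bound site.

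HNF4a, a nuclear receptor that keeps the identity of gut epithelium and that the study mapped in the long-term diet males, had 51 sites at the 10 loci. Of these, 15 had a peak in all 4 libraries and 19 in only 1. The 15 were shared out as 4 at Per2, 3 each at Arntl and Npas2, 2 each at Cry1 and Cry2, and 1 at Dbp, so 6 of 10 loci held such a site, against 20.7% of all loci. Clock, Per1, Per3 and Nr1d1 had none. The members' windows spanned 24957 bp (Dbp) to 188969 bp (Npas2), and the 20.7% was not matched for window length or expression. The site nearest to a start among the 15 was that of Arntl, centred 311 bases before it (chr7:120350518-120350818). In all, 28 sites had a peak in both libraries of a diet. One site, 2.04 kb inside Arntl, had a peak in both HFD libraries and in no LFD library. There were 4 of the opposite kind, 2 in Npas2, 1 beside the start of Per3 and 1 inside Nr1d1. With 2 libraries a diet no test was run on these differences. How often such differences occur over all loci is not given here.

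**Figure D4:**
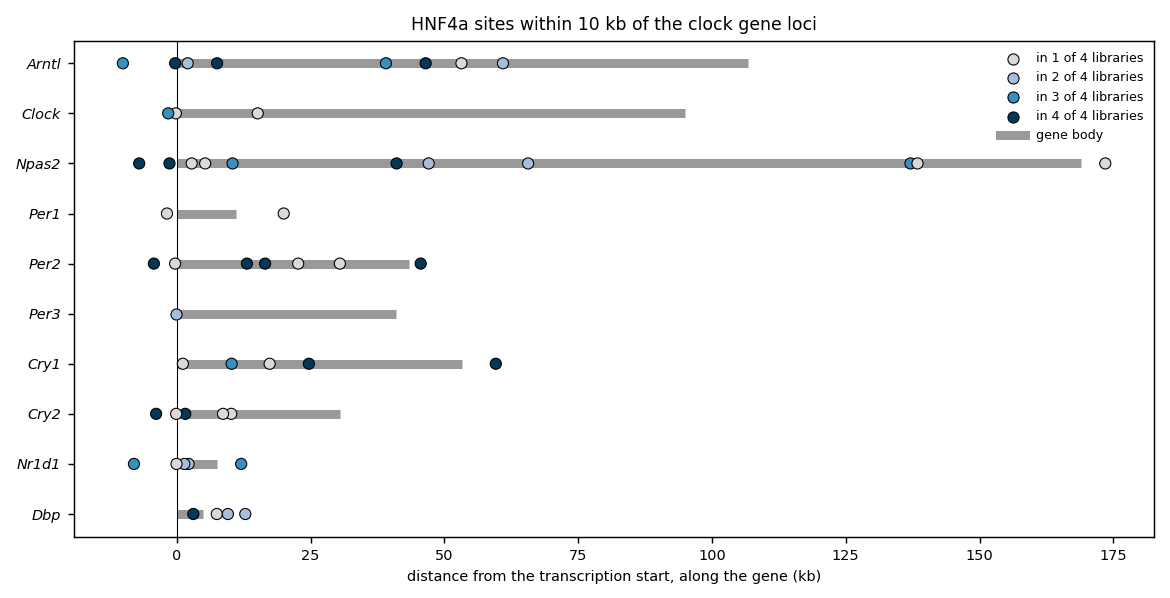
HNF4a sites (points) by distance from the transcription start along each clock gene in kb (x axis), shaded by the number of the 4 libraries with a peak, over the gene body (grey bar). The 15 darkest points were at 6 of the genes, with 4 of them at Per2, and Per1 and Per3 held only sites in 1 or 2 libraries.

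The HNF4a sites were searched for the direct-repeat motif in the forms CAAAGGTCA, CAAAGGCCA, CAAAGTTCA and CAAAGTCCA, on both strands. It was in 6 of the 15 sites found in all libraries, in 4 of the 17 found in 2 or 3, and in 1 of the 19 found in 1. Over all 51 sites 11 held it, against 15.8% to 18.2% of all HNF4a peaks of a library. The 51 sites were merged over libraries and were up to 375 bp wide, unlike those peaks. The share by number of libraries over all HNF4a sites is not given here. None of the 10 promoter windows held it, against 1.77% of all. The surroundings of the motif are shown for these 6 sites, since they are the ones that tie the factor's letters to a reproducible peak. They are written on the strand of the gene, with the motif in capitals, where TGGACTTTG and TGACCTTTG are its reverse strand.
Arntl, intron, 7.53 kb inside the gene (chr7:120358371-120358485, + strand): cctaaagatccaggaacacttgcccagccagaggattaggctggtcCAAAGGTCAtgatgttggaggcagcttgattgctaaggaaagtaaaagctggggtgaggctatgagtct
Arntl, intron, 46.5 kb inside the gene (chr7:120397390-120397518, + strand): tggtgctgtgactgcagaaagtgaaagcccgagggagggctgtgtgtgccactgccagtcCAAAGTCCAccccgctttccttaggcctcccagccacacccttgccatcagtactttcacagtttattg
Npas2, upstream (chr1:39244020-39244148, + strand): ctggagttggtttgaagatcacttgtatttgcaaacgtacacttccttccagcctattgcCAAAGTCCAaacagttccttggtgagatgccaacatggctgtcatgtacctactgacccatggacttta
Per2, intron (chr1:93339381-93339509, − strand): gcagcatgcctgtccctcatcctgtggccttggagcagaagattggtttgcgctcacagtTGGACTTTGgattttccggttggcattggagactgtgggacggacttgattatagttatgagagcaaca
Per2, upstream (chr1:93360051-93360252, − strand): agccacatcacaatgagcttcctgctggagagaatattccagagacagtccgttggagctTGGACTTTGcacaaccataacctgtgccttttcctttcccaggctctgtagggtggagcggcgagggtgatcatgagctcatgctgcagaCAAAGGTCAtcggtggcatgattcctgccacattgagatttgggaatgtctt
Dbp, exon, 3.09 kb inside the gene (chr7:52963627-52963755, + strand): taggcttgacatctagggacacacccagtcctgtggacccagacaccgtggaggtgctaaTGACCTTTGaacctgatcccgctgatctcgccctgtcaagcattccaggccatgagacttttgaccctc
The upstream sites of Npas2, 7.03 kb before the start, and of Per2, 4.28 kb before it, held the same form CAAAGTCCA centred 2 bases from the middle of the site. That of Per2 held a further motif, CAAAGGTCA, 88 bases from the middle, and was the only site of the 15 with more than 1. All 6 of these sites lay under an H3K27ac peak in all 6 long-term diet males.

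The long-term diet did not give the clock gene loci a difference in H3K27ac that could be detected. The length covered by peaks in the locus extended by 10 kb was higher on HFD for 7 members and lower for 3, with a median of 2.77% more against 4.0% over 17317 loci. By exact permutation tests within sex (400 arrangements, smallest possible p of 0.005) 0 members had a p of 0.05 or less, against 4.69% of all loci. The smallest p of a member was 0.065 for Clock, covered over 9567 ± 1382 bp on HFD and 7833 ± 1727 bp on LFD (SD, n = 6 each).

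For H3K4me1, 2 members had a p of 0.05 or less in the same exact permutation test, against 3.85% of 19991 loci. Per1 was covered over 16373 ± 791 bp on HFD and 17787 ± 1268 bp on LFD (SD, n = 6 each, exact permutation p = 0.03). In males the values of Per1 were 15259, 17059 and 16000 bp on HFD and 20202, 16459 and 17259 bp on LFD, and in females 17459, 16400 and 16059 against 17743, 17400 and 17659 bp, so the diets overlapped in both sexes. Cry2 was covered over 20659 ± 1046 bp on HFD and 19526 ± 374 bp on LFD (SD, n = 6 each, exact permutation p = 0.045). In males Cry2 was at 20426 to 21826 bp on HFD and 19426 to 19626 bp on LFD, and in females at 18826 to 21226 and 19226 to 20226 bp, where the diets overlapped. Neither passed adjustment over all loci (adjusted p = 1.0 for both).

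In recipients, the transplanted bacteria gave no member a p of 0.05 or less for H3K27ac by exact permutation within diet (200 arrangements), against 3.84% of 17841 loci. The smallest p was 0.075, for Clock. By diet, 3 members had such a p, Arntl, Clock and Dbp, but so did 16.1% of all loci. The covered length was 22.4% higher on HFD for Arntl (exact permutation p = 0.035, adjusted p over all loci = 0.279), 21.6% for Clock (exact permutation p = 0.04, adjusted p = 0.291) and 8.96% for Dbp (exact permutation p = 0.04, adjusted p = 0.291). The median of the 10 members was 9.55% higher against 13.8% over all loci. The peak lists of the HFD-fed recipients covered 106.7 to 132.2 Mb of the genome and those of the LFD-fed recipients 93.07 to 117.2 Mb. With covered length taken as a share of each library's total, 1 member had an exact permutation p of 0.05 or less, and it was none of these 3. The difference of Dbp was then below 0. Arntl was covered over 30022 and 36222 bp in HFDHFB, 37822, 34222 and 34622 bp in HFDLFB, 33622, 24600 and 25222 bp in LFDHFB, and 28022, 31222 and 25622 bp in LFDLFB. The diets overlapped among recipients of HFB and not among recipients of LFB.

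**Figure D5:**
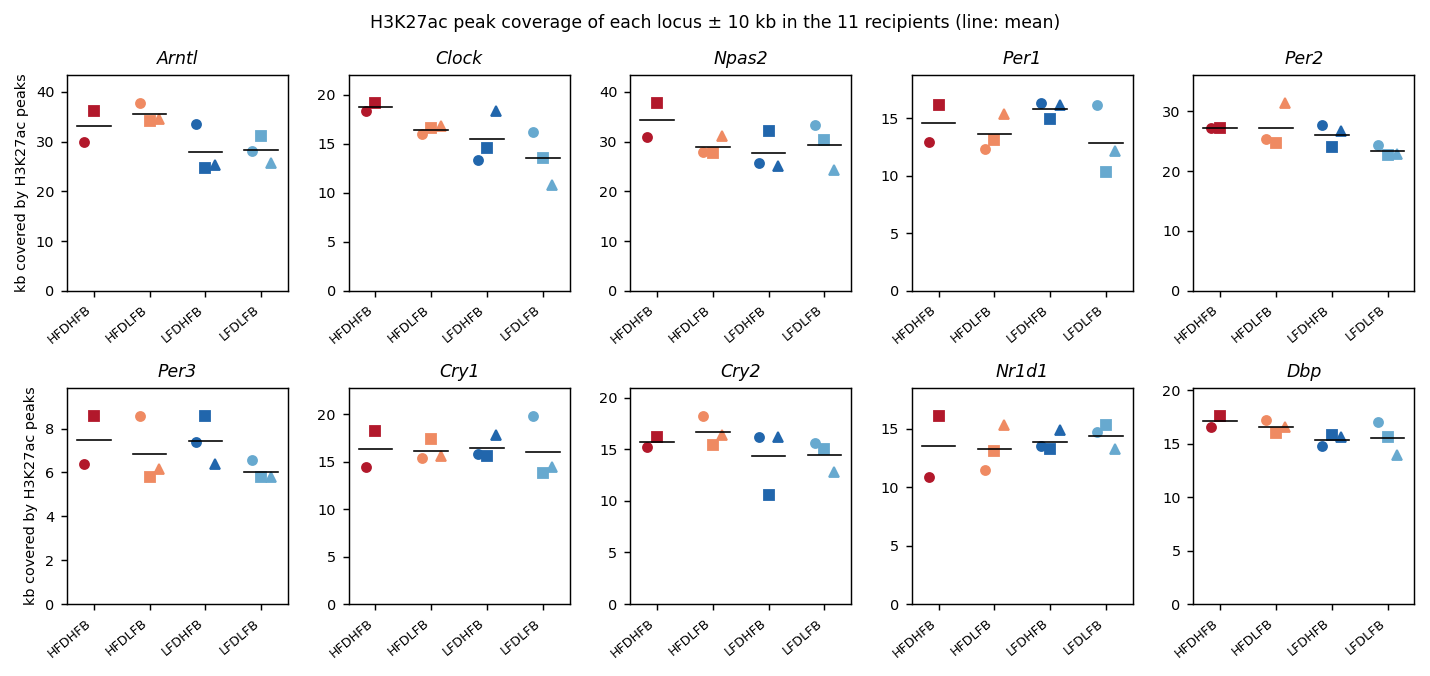
Length covered by H3K27ac peaks in each clock gene's locus extended by 10 kb (y axis, kb, linear from 0) in the 11 recipient libraries by group (x axis), with a line at the group mean (n = 3, and 2 in HFDHFB). For Arntl the 5 HFD-fed libraries lay at 30022 to 37822 bp and the 6 LFD-fed libraries at 24600 to 33622 bp.

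Among the histone mark peaks, 2 regions in the 10 windows were present in every library of one group and absent from the other. Regions of H3K27ac with a peak in both HFDHFB libraries and in no LFDHFB library lay in an intron of Arntl (chr7:120411401-120414600) and over an exon of Car11 in the window of Dbp (chr7:52955201-52956800), out of 69 regions compared. In the other comparisons of H3K27ac and H3K4me1, each over 42 to 70 regions of one mark, no region separated the groups in this way. With 2 libraries against 3, no test of a single region was run. The share of such regions over all loci is not given here. The HFDHFB lists covered 106.7 and 132.2 Mb of the genome and the LFDHFB lists 98.79 to 104.6 Mb.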

How the data were processed

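RNA-seq was measured in 12 colon samples of recipients, and H3K27ac, H3K4me1 and HNF4a by ChIP-seq, 1 peak list per library. The authors aligned reads to mm9, with STAR 2.5 for RNA and Bowtie 0.12.8 for ChIP-seq per the labels, and counted reads per gene with featureCounts 1.5.0-p1. The deposited counts are raw and not normalized. The deposited peak lists, from SICER for the histone marks and HOMER for HNF4a, give positions only, so the depth of those libraries is unknown.

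Differential expression was tested with edgeR 4.0.16 under R 4.3.3 (filterByExpr, TMM, quasi-likelihood F-tests, 4 groups in 1 fit, Benjamini-Hochberg over 15893 genes) and, as an alternative, DESeq2 1.42.0. Log2 CPM used a prior count of 2. Correlations used 100000 permutations, or all 1296 arrangements within groups. Covered length was tested for every gene locus by exact permutation within sex, diet or bacteria. Sequences were read from mm9 with pysam 0.24.0, and exons from GENCODE vM1. Library totals of 39904191 to 48026846 make counting error small beside the spread between libraries. The scripts were tested on simulated data. Genes were named if they were members or were among the 5 most and 5 least like Arntl or Dbp. The rule also named genes of the clock and glucocorticoid lists that passed the adjusted threshold, but none did by edgeR. Other names from these lists, such as Tef, Noct and Zbtb16, were chosen after their values were seen. The members and lists were chosen with earlier results of these data known. Alternatives were another scaling, no filter, DESeq2, a replicate block, other windows and measures, and leaving out each library. Gene arrays and 16S rDNA sequencing were not analysed here, and 1 gene of the other clock genes is not reported by name.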

Additional observations from a re-analysis of the deposited data

How the results depend on the processing

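The count of clock genes called by RNA-seq stayed at 0 in all 5 comparisons under DESeq2's size factors, no filter, DESeq2, an unadjusted p of 0.001 and the muscle covariate, in the 4 comparisons fitted on 2 groups alone, and without any 1 library. The same replicate numbers occur in each group, but same-numbered libraries did not deviate together: 6 of 18 pairs had r over 0.1, with a range of −0.591 to 0.451, and 1 of 12 libraries correlated best with its own number. In all genes tested edgeR called 0 in each comparison and DESeq2 80, 0, 72, 126 and 9, in the order of the report. With the numbers as a replicate block the count of clock genes was 0 in each comparison, and so was that of all genes. With the muscle covariate 24 of all genes were called in HFDHFB against HFDLFB, 1 for the interaction and 0 elsewhere.

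Fold changes near 0 changed sign. For the interaction of Nr1d1 they were −0.007 with DESeq2's size factors, −0.001 with no filter and −0.007 in DESeq2. With the muscle covariate, in HFDHFB against HFDLFB, Arntl was at 0.122, Clock at 0.043, Per1 at 0.013 and Per3 at 0.047. The interaction was then 0.227 for Arntl, 0.065 for Npas2, 0.144 for Per1, 0.041 for Per2 and −0.031 for Nr1d1. In HFDHFB against LFDHFB, Arntl was then at 0.159 and Per1 at 0.042, and in HFDLFB against LFDLFB Arntl was at −0.068 and Per3 at −0.029. Without 1 library, Per3 was at −0.311 to 0.024 in HFDHFB against HFDLFB. In LFDHFB against LFDLFB the range was −0.507 to 0.425 for Arntl, −0.548 to 0.075 for Npas2, −0.36 to 0.096 for Per1, −0.248 to 0.163 for Per2, −0.25 to 0.011 for Cry2 and −0.111 to 0.241 for Dbp, with Arntl at 0.425 without LFDHFB replicate 3. The interaction ranged over −0.704 to 0.199 for Arntl, −0.442 to 0.18 for Npas2, −0.292 to 0.194 for Per1 and −0.232 to 0.118 for Nr1d1. In HFDHFB against LFDHFB it was −0.628 to 0.292 for Arntl, −0.536 to 0.031 for Npas2 and −0.315 to 0.035 for Per1. In HFDLFB against LFDLFB it was −0.122 to 0.268 for Arntl, −0.293 to 0.152 for Npas2, −0.275 to 0.178 for Per1, −0.169 to 0.093 for Per2 and −0.103 to 0.186 for Per3.

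The number of loci with a p of 0.05 or less was less stable. For H3K27ac by long-term diet it was 1 with no extension, 1 with 50 kb and 1 as a share of covered bp, and 0 to 2 without 1 library. For H3K4me1 it was 1 with no extension, 1 with 50 kb, 0 by number of peaks, 1 as a share, 0 in the paired sign flips of same-numbered libraries (replicate block), and 0 to 2 without 1 library. For H3K27ac by transplanted bacteria it was 2 by number of peaks and 2 as a share, and 0 to 2 without 1 library. For H3K27ac by diet of recipients it was 0 by number of peaks, 1 as a share, and 0 to 3 without 1 library. The paired sign flips of recipients (replicate block) gave 0, but with their few pairs they could not reach a p of 0.05, so that value says nothing. By number of peaks Per1 was 0.3 higher and Cry2 −0.2 for H3K4me1, and Arntl was −0.7 and Dbp −0.3 for recipients, and Dbp was −7.2 bp in each covered Mb as a share. HNF4a sites with a peak in both libraries of a diet numbered 28, or 16 with no extension. There were 51 with a peak in either library. Without 1 library, which leaves a diet with a single library to meet the condition, there were 33 to 36. Correlated pairs past adjustment numbered 0 to 3 without 1 library, with 3 without HFDHFB replicate 3 or LFDLFB replicate 1 and 2 without HFDLFB replicate 1 or LFDLFB replicate 2. For H3K27ac by long-term diet the count was 2 without HFD male replicate 1 and 1 without LFD male or LFD female replicate 2. For H3K4me1 it was 0 without HFD or LFD male replicate 1, 2 without LFD female replicate 1 and 1 without any other library. For transplanted bacteria it was 2 without LFDLFB replicate 1 and 1 without HFDLFB replicate 1 or 3. For the diet of recipients it was 0 without HFDHFB replicate 2, LFDHFB replicate 2 or LFDLFB replicate 3, and 1 without HFDHFB replicate 1, LFDHFB replicate 3, HFDLFB replicate 1 or 3 or LFDLFB replicate 2. The causes of these shifts were not tested.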
